A study of Mus musculus with 10 samples.

Results

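Citrate carriers and the enzymes that make or use citrate were examined as a set of 9 genes in the livers of 5 WT and 5 THRB-KO mice. The set was built around Slc13a5, which was chosen by its measured log2 fold change, much lower in THRB-KO than in WT livers. The other 8 genes, Slc13a3, Slc13a2, Slc25a1, Acly, Cs, Aco1, Idh1 and Idh2, were added for their function, with earlier results of these data known. All 9 symbols matched a single mouse Ensembl identifier among the 55401 of the count files, and all 9 were among the 12234 genes that passed the filter on low values. That filter asks for at least 1 CPM (counts scaled to a library of 1000000) in at least 5 libraries. Slc13a5 passed it only through the WT livers.

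Each library came from the liver of 1 untreated mouse kept on standard chow, and mRNA was sequenced after a stranded library preparation. THRB-KO mice are labelled as carrying a liver-specific knockout of Thrb, the thyroid hormone receptor beta gene. They come from Thrb-loxP/loxP animals crossed with Afp-Cre mice, in which Cre is driven by the promoter of the alpha-fetoprotein gene, and WT mice were their littermates. Sample titles name the strain C57Bl6/J, and age and sex of these mice were not stated in the sources used here. Total counts ranged from 26477195 to 28530198 in WT and from 27779196 to 28590704 in THRB-KO livers, so that 3 counts correspond to between 0.0993 and 0.117 normalized CPM. Thrb went from 33.3 ± 0.643 normalized CPM (SD, n = 5) in WT to 26.7 ± 1.93 (SD, n = 5) in THRB-KO livers. These are counts over the whole gene, which show a partial decrease and not the loss of the receptor, and the deleted exons were not examined. The thyroid hormone target Dio1 went from 166 ± 25.5 to 20.3 ± 5.06 (SD, n = 5 each). The summed level of 5 hepatocyte markers (Alb, Ttr, Apoa1, Hnf4a and Cps1) overlapped between genotypes, at 78223 to 117483 and 93434 to 107286 normalized CPM. Alb makes up most of that sum, and 1 of the 5, Ttr, was higher in every THRB-KO than in every WT liver (6553 to 7776 against 5601 to 6049 normalized CPM, edgeR adjusted p = 0.179). Over all genes tested, genotypes did not overlap, in either direction, in 3.64%. In whole liver, fewer cells of a type and less RNA per cell cannot be told apart.

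Citrate is made in mitochondria from acetyl-CoA and oxaloacetate, and can be oxidized there or exported to the cytosol, where it is split again to supply acetyl-CoA for fatty acid and sterol synthesis. Hepatocytes can also take citrate up from the blood through a sodium-coupled carrier of the plasma membrane, the product of Slc13a5, known as NaCT or mINDY. Thyroid hormone is a classical regulator of hepatic lipogenesis, a pathway that draws on cytosolic citrate.

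The windows around the annotated transcription starts of Slc13a5 and Slc13a3 are shown because these members were apart between genotypes. The window of Acly is shown because it held the receptor half-site AGGTCA. These windows run from 250 bases before to 50 bases after each RefSeq start on GRCm38.p6, 5′ to 3′ on the minus strand of the chromosome. Slc13a5 has a pair of annotated starts, with windows chr11:72267112-72267411 and chr11:72266555-72266854. Those of Slc13a3 and Acly are chr2:165473148-165473447 and chr11:100527951-100528250. Capitals mark AGGTCA, the hexamer that thyroid hormone receptors bind as a half-site.
Slc13a5, upstream start: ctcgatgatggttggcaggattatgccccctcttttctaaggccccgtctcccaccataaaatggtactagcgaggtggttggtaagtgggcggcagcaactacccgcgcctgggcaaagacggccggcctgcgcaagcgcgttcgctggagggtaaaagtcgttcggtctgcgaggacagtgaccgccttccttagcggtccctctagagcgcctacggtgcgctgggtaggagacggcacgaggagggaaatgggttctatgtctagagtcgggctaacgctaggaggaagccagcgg
Slc13a5, downstream start: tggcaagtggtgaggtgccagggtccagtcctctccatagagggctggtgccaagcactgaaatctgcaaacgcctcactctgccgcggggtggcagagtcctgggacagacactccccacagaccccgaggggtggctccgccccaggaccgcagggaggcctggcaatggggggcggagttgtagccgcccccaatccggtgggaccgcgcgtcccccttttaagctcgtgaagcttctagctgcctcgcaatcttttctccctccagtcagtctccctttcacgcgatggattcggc
Slc13a3: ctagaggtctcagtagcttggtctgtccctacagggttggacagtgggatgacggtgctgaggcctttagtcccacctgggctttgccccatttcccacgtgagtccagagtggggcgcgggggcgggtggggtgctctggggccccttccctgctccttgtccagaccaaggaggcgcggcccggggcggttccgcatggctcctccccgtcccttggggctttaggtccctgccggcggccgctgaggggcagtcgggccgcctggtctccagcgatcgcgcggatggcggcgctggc
Acly: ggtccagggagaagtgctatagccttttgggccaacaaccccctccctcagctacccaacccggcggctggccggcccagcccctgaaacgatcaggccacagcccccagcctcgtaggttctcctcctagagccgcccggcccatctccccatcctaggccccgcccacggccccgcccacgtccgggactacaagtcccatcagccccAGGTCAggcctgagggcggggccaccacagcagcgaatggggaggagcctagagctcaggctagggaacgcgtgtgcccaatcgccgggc
RefSeq windows were found for 9 of 9 members, 11 windows in all. AGGTCA on either strand was present in 1 of the 11, that of Acly, with its first base 40 bases before the start, and in 16.3% of 32851 windows of that length over the genome. The variant GGGTCA was present in the windows of Slc13a2 and Slc25a1 and in 13.7% of all windows. The direct repeat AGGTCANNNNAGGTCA, which contains AGGTCA, was in 0 of the 11 windows and in 0.0152% of all. These matches describe letters in short windows and say nothing about receptor binding.

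Of the 3 SLC13 carriers in the set, Slc13a5 had been chosen for its fall, so its difference between genotypes is a description. Slc13a3, the best expressed of them in WT livers, was lower in every THRB-KO than in every WT liver. That held for 2.26% of all genes tested. The scarce Slc13a2 overlapped. Slc13a5 (ENSMUSG00000020805) lies on chromosome 11 of GRCm38 from 72241989 to 72267222. Its normalized CPM were 7.72, 13.4, 10.5, 4.84 and 7.60 in WT mice 1 to 5. In THRB-KO mice 1 to 5 they were 0.903, 0.412, 0.480, 0.497 and 0.495. The genotypes were far apart, with WT mouse 2 the highest and THRB-KO mouse 1 the highest of its group. In raw reads this was 1206 counts over the 5 WT and 80 over the 5 THRB-KO libraries. The mean was 8.80 ± 3.23 (SD, n = 5) in WT and 0.558 ± 0.196 (SD, n = 5) in THRB-KO livers, 15.8-fold lower. The fitted log2 fold change was −3.97 (standard error 0.30), the value by which Slc13a5 had been chosen and for which no test is given. It was the 11th lowest of the 12234 genes tested, between Mup-ps16 (−3.98) and Mup16 (−3.72). Of the 4940 bp of merged Slc13a5 exons, 473 bp are shared with 1700051A21Rik, and reads over both genes were not counted. That neighbour held at most 2 counts in any library.

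Slc13a3 (ENSMUSG00000018459; chromosome 2, 165405028 to 165473230) encodes NaDC3, a sodium-coupled carrier of dicarboxylates such as succinate that also takes citrate. Its normalized CPM were 49.8, 60.8, 35.4, 35.6 and 44.2 in WT mice 1 to 5, and 22.7, 26.1, 12.8, 18.2 and 17.6 in THRB-KO mice 1 to 5. Every THRB-KO liver was below every WT liver, and the lowest WT mice, 3 and 4, were still above the highest THRB-KO mouse, 2. Slc13a3 fell from 45.1 ± 10.7 (SD, n = 5) to 19.5 ± 5.10 (SD, n = 5), a mean 2.32-fold lower. The log2 fold change was −1.21 (standard error 0.20, 95% interval −1.65 to −0.77, edgeR quasi-likelihood adjusted p = 0.0148). Of the 8 members other than Slc13a5, 1 was past the threshold of 0.15, Slc13a3. Members were chosen with earlier results of these data known. Of all genes tested, 4.08% were past the threshold, 2.57% lower and 1.51% higher. Genotypes did not overlap in 3.64% of all genes tested, with THRB-KO below WT in 2.26%.

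Slc13a2 (ENSMUSG00000001095; chromosome 11, 78397087 to 78422217) encodes NaDC1, the di- and tricarboxylate carrier best known from kidney and intestine. It was scarce, at 1.32, 1.33, 1.25, 1.56 and 2.25 normalized CPM in WT mice 1 to 5. In THRB-KO mice 1 to 5 it was at 1.95, 1.39, 1.89, 0.927 and 3.71, which covers the whole WT range. Its log2 fold change was 0.35 (standard error 0.32, 95% interval −0.35 to 1.06, edgeR adjusted p = 0.694). Without THRB-KO mouse 5 it was −0.0047. Of its exons, 632 bp of 2412 bp are shared with the antisense gene Slc13a2os, which held 1 to 4 counts per library, so its level is uncertain. Of the other SLC13 genes, neither Slc13a1 nor Slc13a4 passed the filter on low values.

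**Figure D1:**
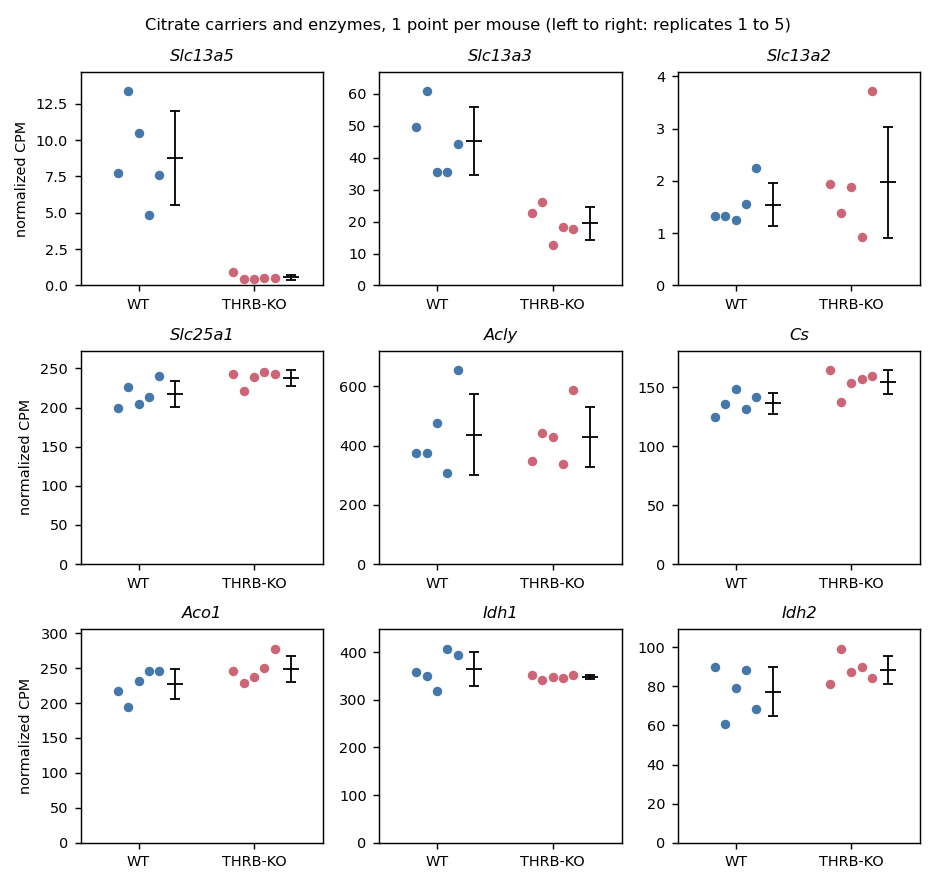
Normalized CPM (vertical axes, from 0) of the 9 genes in WT (blue) and THRB-KO (red) livers, 1 point per mouse with replicates 1 to 5 from left to right, and the mean ± SD of each genotype in black. Slc13a5, chosen for its fall, and Slc13a3 are apart between genotypes, whereas the other 7 genes overlap. Slc13a3 is between 35.4 and 60.8 in WT and between 12.8 and 26.1 in THRB-KO livers.

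Carriers and enzymes differed widely in level, which was compared between genes per kilobase of merged exon. Per kilobase, WT livers held 132 ± 12.9 normalized CPM of Idh1, 100 ± 7.67 of Slc25a1, 82.9 ± 25.8 of Acly, 50.5 ± 4.80 of Aco1, 29.8 ± 4.87 of Idh2 and 23.6 ± 1.56 of Cs (SD, n = 5 each). The plasma membrane carriers followed, with 8.66 ± 2.04 for Slc13a3, 1.78 ± 0.654 for Slc13a5 and 0.640 ± 0.170 for Slc13a2 (SD, n = 5 each). Neighbours in this order had overlapping ranges for Slc25a1 and Acly, with Slc25a1 the higher in 4 of 5 WT mice, and for Idh2 and Cs, with Idh2 the higher in 5 of 5. The other WT neighbours did not overlap. In THRB-KO livers the order of the first 7 genes was the same and the last pair was exchanged. There Slc13a2 was at 0.818 ± 0.438 and Slc13a5 at 0.113 ± 0.0397 normalized CPM per kilobase (SD, n = 5 each), with no overlap. Slc25a1 and Acly were the neighbours that overlapped in THRB-KO livers, with Slc25a1 the higher in 5 of 5 mice.

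**Figure D2:**
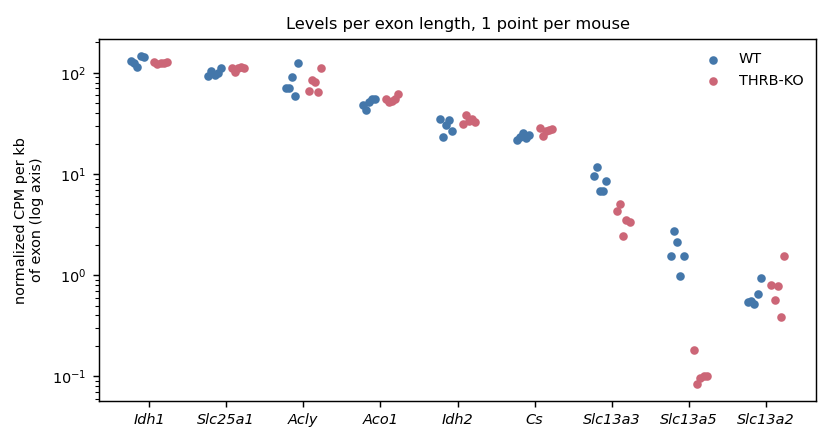
Normalized CPM per kilobase of merged exon (log axis) for the 9 genes in order of their WT mean, with 1 point per mouse in WT (blue) and THRB-KO (red) livers. Slc13a5 goes from 1.78 in WT to 0.113 in THRB-KO livers and changes places with Slc13a2, while the enzymes keep their order.

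Citrate synthesis and its export from mitochondria were covered by Cs and Slc25a1, neither of which was past the threshold. Cs (ENSMUSG00000005683; chromosome 10, 128337734 to 128362479) encodes citrate synthase, which joins acetyl-CoA and oxaloacetate. Its normalized CPM were 125, 135, 148, 132 and 142 in WT mice 1 to 5 and 164, 137, 153, 157 and 160 in THRB-KO mice 1 to 5. THRB-KO mice 1, 3, 4 and 5 were above all WT mice, and THRB-KO mouse 2 was inside the WT range. The means were 136 ± 9.03 and 154 ± 10.3 (SD, n = 5 each), a log2 fold change of 0.18 (standard error 0.076). Its unadjusted p was 0.036 and its adjusted p 0.327 with edgeR, with an interval from 0.014 to 0.34. Slc25a1 (ENSMUSG00000003528; chromosome 16, 17925223 to 17928219) encodes the mitochondrial citrate carrier, which exchanges citrate for malate. It was at 200, 226, 205, 214 and 241 normalized CPM in WT mice 1 to 5. In THRB-KO mice 1 to 5 it was at 243, 221, 239, 245 and 242, with all but mouse 2 above WT mice 1 to 4. The log2 fold change was 0.13 (standard error 0.076, interval −0.032 to 0.30, adjusted p = 0.477, edgeR). The per-length log2 ratio of Slc25a1 to Cs was 2.09 ± 0.12 in WT and 2.05 ± 0.046 in THRB-KO livers (SD, n = 5 each).

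Acly (ENSMUSG00000020917; chromosome 11, 100476353 to 100528000) encodes ATP citrate lyase, which splits cytosolic citrate into acetyl-CoA and oxaloacetate. Its normalized CPM were 374, 374, 476, 308 and 656 in WT mice 1 to 5 and 349, 444, 429, 339 and 589 in THRB-KO mice 1 to 5. Mouse 5 was the highest of each genotype, and the THRB-KO range lay within the WT range. The means of 438 ± 136 and 430 ± 100 (SD, n = 5 each) gave a log2 fold change of −0.025 (standard error 0.21, edgeR adjusted p = 0.975). The spread between mice leaves an interval from −0.48 to 0.43, so a change within these bounds remains compatible with the values of 5 mice per genotype. The sign turned without WT mouse 5 (0.17). The per-length log2 ratio of Acly to Cs was 1.77 ± 0.37 in WT and 1.58 ± 0.35 in THRB-KO livers (SD, n = 5 each).

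Aco1 (ENSMUSG00000028405; chromosome 4, 40143081 to 40198338) encodes the cytosolic aconitase, which converts citrate to isocitrate and, without its iron-sulphur cluster, acts as an iron-regulatory RNA-binding protein. It ranged from 195 to 246 normalized CPM in WT (median 231) and from 229 to 278 in THRB-KO livers (median 246). The log2 fold change was 0.13 (standard error 0.088, interval −0.064 to 0.32, adjusted p = 0.576, edgeR). Its paralog Ireb2, which encodes the other iron-regulatory protein, was at 0.17 (standard error 0.13, adjusted p = 0.616, edgeR).

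The NADP-dependent isocitrate dehydrogenases likewise overlapped between genotypes. Idh1 (ENSMUSG00000025950; chromosome 1, 65158616 to 65186500) encodes the cytosolic and peroxisomal enzyme, a source of NADPH. It was at 358, 349, 318, 407 and 394 normalized CPM in WT mice 1 to 5 and at 353, 342, 347, 345 and 351 in THRB-KO mice 1 to 5. All THRB-KO values lay within the WT range, with SDs of 4.43 and 35.7 (n = 5 each), a difference in spread that was not tested. The log2 fold change was −0.072 (standard error 0.083, interval −0.25 to 0.11, adjusted p = 0.772, edgeR). Idh2 (ENSMUSG00000030541; chromosome 7, 80094846 to 80115392) encodes the mitochondrial enzyme. Its normalized CPM were 89.8, 60.6, 79.1, 88.1 and 68.2 in WT mice 1 to 5 and 80.9, 99.3, 87.1, 89.97 and 84.2 in THRB-KO mice 1 to 5. WT mice 2, 3 and 5 were below all THRB-KO mice, and WT mice 1 and 4 were within their range. The log2 fold change was 0.19 (standard error 0.11, interval −0.042 to 0.43, adjusted p = 0.471, edgeR). Per length, Idh1 exceeded Idh2 4.52-fold in WT and 3.70-fold in THRB-KO livers, a log2 ratio of 2.16 ± 0.26 and 1.88 ± 0.13 (SD, n = 5 each), with overlapping ranges. None of Slc25a1, Acly, Cs, Aco1, Idh1 and Idh2 shares exon sequence with another gene of the annotation. The median log2 fold change of the 8 members other than Slc13a5 was 0.13, against 0.00054 over all genes tested.

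The wider pathway was read from 62 further genes, of which 57 were tested, and 2 rose and 1 fell at an adjusted p of 0.15, against 4.08% called among all genes tested. Their median log2 fold change was 0.076. Pdp2, a phosphatase that activates pyruvate dehydrogenase, was at 44.8, 36.8, 43.6, 48.6 and 43.4 normalized CPM in WT mice 1 to 5. In THRB-KO mice 1 to 5 it was at 76.2, 59.7, 55.7, 51.4 and 63.4, all above the WT mice. Among all genes tested, 3.64% did not overlap between genotypes, in either direction. On the log2 scale Pdp2 rose by 0.50 (standard error 0.11, edgeR adjusted p = 0.0448). Me1, the cytosolic malic enzyme and a textbook thyroid hormone target, yields NADPH from malate. It was at 140, 216, 275, 195 and 203 normalized CPM in WT mice 1 to 5 and at 341, 240, 450, 383 and 359 in THRB-KO mice 1 to 5, with THRB-KO mouse 2 inside the WT range. On the same scale Me1 rose by 0.79 (standard error 0.19, adjusted p = 0.0652, edgeR). Srebf1, which encodes the lipogenic transcription factor SREBP1, was at 341, 533, 383, 315 and 764 normalized CPM in WT mice 1 to 5. In THRB-KO mice 1 to 5 it was at 283, 241, 213, 241 and 315, below all WT mice except for THRB-KO mouse 5, which was level with WT mouse 4. Srebf1 fell by 0.85 on the log2 scale (standard error 0.23, adjusted p = 0.102, edgeR). The count of 3 pathway genes depended on the mice: it was 1 without THRB-KO mouse 3 and 5 and 6 without THRB-KO mice 1 and 2. Leaving out THRB-KO mouse 1 added Pdhx and Stat3, and leaving out THRB-KO mouse 2 added Dlat, Fh1, Ogdh and Pdk4. Me1 was no longer called without THRB-KO mouse 3 (adjusted p = 0.155, edgeR), and Srebf1 was no longer called without WT mouse 2 or without THRB-KO mouse 2, 3 or 4 (adjusted p = 0.225, 0.168, 0.243 and 0.207, edgeR), nor without the filter on low values (adjusted p = 0.24, edgeR). With the first principal component of acute-phase genes as a covariate, Srebf1 was at −0.012, Me1 at 0.32 and Pdp2 at 0.43 on the log2 scale, and none of them was called (edgeR adjusted p = 1 each).

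By list, the tricarboxylic acid cycle had 15 genes tested and 0 past the threshold with edgeR, of which 12 had a fitted value above 0 (median log2 fold change 0.11) and 5 an unadjusted p below 0.05. Over all genes tested, 50.1% had a fitted value above 0 and 13.6% an unadjusted p below 0.05. DESeq2, which called 885 of all genes tested against 499 with edgeR, called 3 of these 15. They were Idh3a, which was lower, and Idh3b and Sdha, which were higher (edgeR log2 fold changes −0.32, 0.22 and 0.21). Without THRB-KO mouse 2, edgeR called Fh1 and Ogdh of this list (log2 fold changes −0.21 and 0.17 with all mice). The highest value in this list was that of Suclg1, a subunit of succinyl-CoA ligase (log2 fold change 0.22, adjusted p = 0.388, edgeR). It went from 104 ± 14.8 to 121 ± 12.7 normalized CPM (SD, n = 5 each). The lowest was that of Idh3a, a subunit of the NAD-dependent isocitrate dehydrogenase, at −0.32 (adjusted p = 0.203, edgeR). In the list of pyruvate entry, 12 genes were tested and 1 rose, Pdp2, where 1.51% of all genes tested rose. Fitted values were above 0 for 9 of the 12, with a median of 0.17, and 5 had an unadjusted p below 0.05 (edgeR). Pdk4, a kinase that inhibits pyruvate dehydrogenase, had the highest value there, 1.61 (standard error 0.53, adjusted p = 0.21, edgeR), and ranged from 1.35 to 11.7 normalized CPM among THRB-KO mice against 1.05 to 2.002 among WT mice. Its value was 0.99 without THRB-KO mouse 5, and it was called by DESeq2 (adjusted p = 0.0162) and by edgeR without THRB-KO mouse 2 (adjusted p = 0.0798). The lowest was Pcx, the pyruvate carboxylase that supplies oxaloacetate, at −0.10.

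The list around the use of citrate-derived acetyl-CoA in fatty acid and sterol synthesis held 11 genes, not all of them enzymes that use it. Of these, 0 were past the threshold with edgeR or DESeq2, and 7 had a fitted value below 0, with a median of −0.44. An unadjusted p below 0.05 was found for 3 (edgeR, against 13.6% of all genes tested). Those 3 were Acacb (−0.71), Thrsp and, in the other direction, Mlycd (0.21). The lowest was Thrsp, a lipogenic thyroid hormone target, at −1.28 (standard error 0.50, adjusted p = 0.304, edgeR), with 381 to 1900 normalized CPM in WT and 151 to 487 in THRB-KO livers. It was at −0.60 without WT mouse 5 and at −0.082 with the acute-phase covariate. The highest was the desaturase Scd1, at 0.34 (standard error 0.44). In the list of NADPH sources, which also holds the NAD-dependent malate dehydrogenase gene Mdh1, 5 genes were tested. Of these, 1 rose, Me1, where 1.51% of all genes tested rose. The lowest was Pgd of the pentose phosphate pathway, at −0.11. Nnt, with a pair of overlapping gene models, was not analysed here and counts among the genes listed but not tested. Among 3 mitochondrial di- and oxodicarboxylate carriers, the values ran from −0.0056 (Slc25a21) to 0.076 (Slc25a10), and the citrate exporter Ankh was at −0.033 (standard error 0.14), with none called by edgeR or DESeq2 and 0 at an unadjusted p below 0.05. Of 9 transcription factors 1 fell with edgeR, Srebf1, where 2.57% of all genes tested fell. Ahr, the aryl hydrocarbon receptor gene (log2 fold change −0.35, edgeR adjusted p = 0.213), was called by DESeq2 and by edgeR without the filter on low values. The highest value was that of Ppara (0.20).

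**Figure D3:**
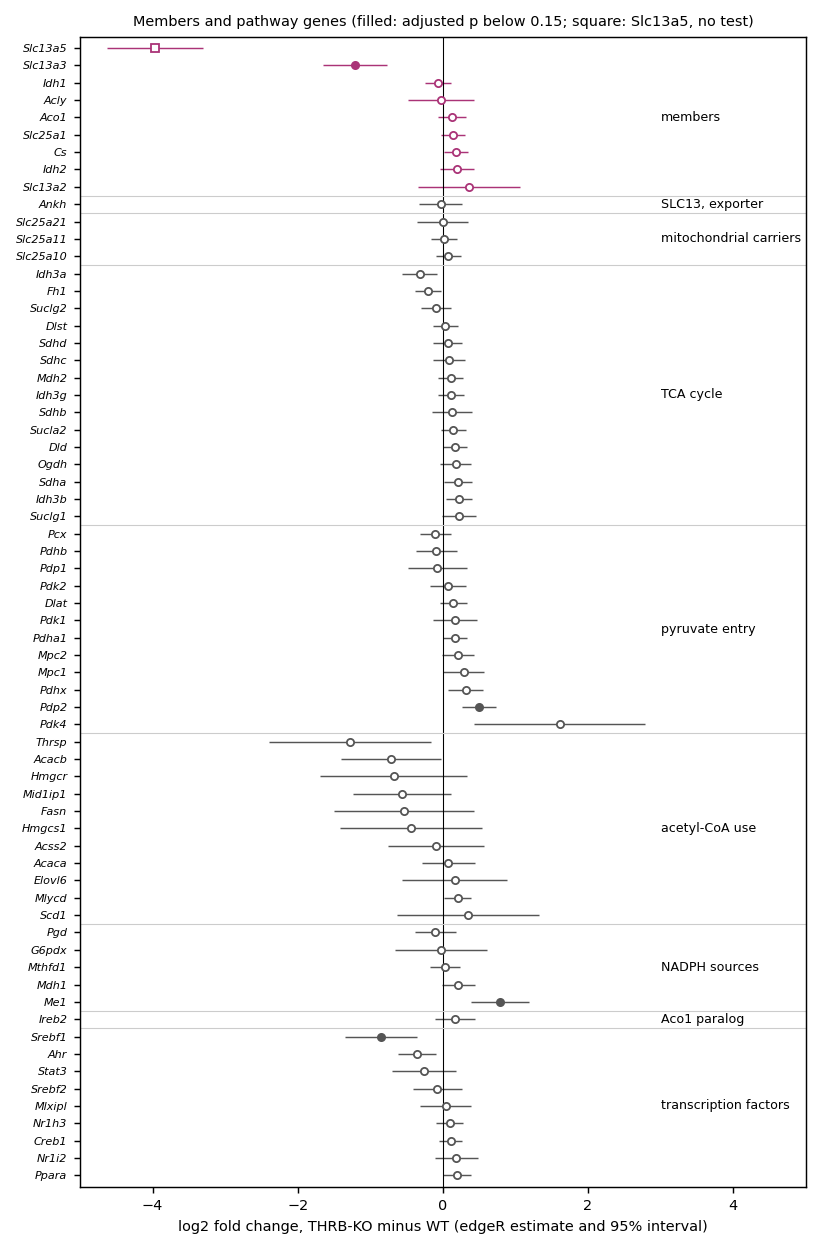
Log2 fold changes of THRB-KO against WT livers (horizontal axis, edgeR estimates with 95% intervals) for the members (purple) and the pathway genes tested (grey), by list. Filled points are past an adjusted p of 0.15 (Slc13a3, Pdp2, Me1 and Srebf1), and the square is Slc13a5 at −3.97, which was not tested.

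Genes whose pattern over the 10 libraries was nearest to that of Slc13a5 were sought by the root mean square difference of log2 CPM, each gene centred on its WT mean. The nearest were H2-Q1 (0.63), Dio1 (0.80), Cxcl14 (0.85), Mup-ps16 (0.88) and Mup16 (0.90), where the median over 12233 genes was 2.71. H2-Q1, a class I histocompatibility gene, was at 7.46 to 13.9 normalized CPM in WT and 0.15 to 0.960 in THRB-KO livers. Dio1, the hepatic deiodinase that activates thyroid hormone, ranged from 141 to 208 and from 13.8 to 25.9. Cxcl14, a chemokine gene, ranged from 2.66 to 17.9 and from 0.463 to 0.938, and its log2 fold change of −3.35 was −2.45 without WT mouse 2. Levels of H2-Q1 and of the Mup genes are uncertain, since reads shared with their close paralogs were dropped by the counting. These values are a description of likeness in these libraries, since the measure uses the values by which Slc13a5 was chosen.

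Many acute-phase genes moved with genotype in these livers, and the levels of a list of them are given beside those of the carriers. Of 26 such genes, 25 were tested, of which 15 fell and 0 rose, against 2.57% of all genes tested that fell. The remaining 10 were not called. Fitted values were below 0 for 24 and above 0 for 1, Hamp, at 0.81 (edgeR adjusted p = 0.331). The acute-phase level of a mouse is the mean log2 CPM of the 25 tested genes. It was 9.17, 9.72, 8.36, 8.81 and 9.41 in WT mice 1 to 5. In THRB-KO mice 1 to 5 it was 7.89, 8.25, 7.27, 7.13 and 7.84, without overlap. The summed normalized CPM of all 26 genes did overlap, at 39062 to 89502 in WT and 26238 to 43386 in THRB-KO livers. Taken singly, 8 of the 25 did not overlap between genotypes, against 3.64% of all genes tested. Slc13a3 was highest in the mouse with the highest acute-phase level in each genotype, WT mouse 2 (60.8 normalized CPM) and THRB-KO mouse 2 (26.1). Slc13a5 was also highest in WT mouse 2 (13.4 normalized CPM) but was second highest in WT mouse 3 (10.5), which had the lowest acute-phase level of the WT mice. Within THRB-KO mice, Slc13a5 was lowest in mouse 2 (0.412), which had the highest acute-phase level of that genotype. That place is uncertain, since it rests on 11 counts against 14, 15 and 14 in THRB-KO mice 3 to 5. With the first principal component of these genes as a covariate, the log2 fold change was −3.56 for Slc13a5 and −0.41 for Slc13a3, the latter with a standard error of 0.24 and an edgeR adjusted p = 1, which ended its call. Thrb was no longer called either, at −0.33 (adjusted p = 1, edgeR). Acute-phase levels, as mean log2 CPM, did not overlap between genotypes, although the sums did. The part of acute-phase levels in the Slc13a3 difference and that of genotype cannot be told apart.

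**Figure D4:**
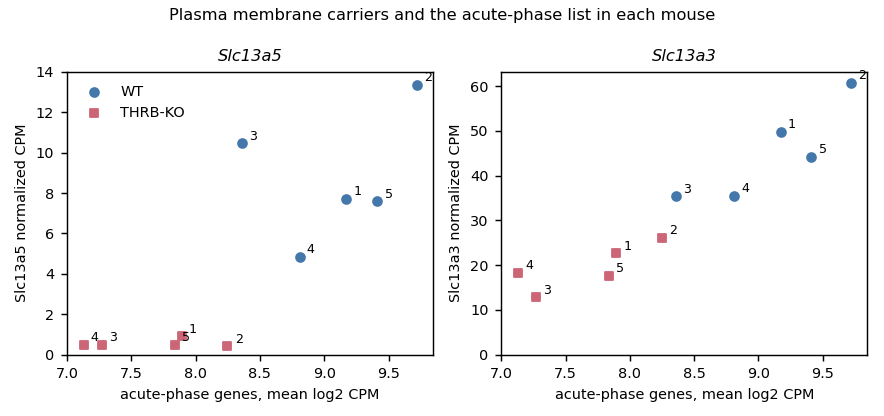
Normalized CPM of Slc13a5 (left) and Slc13a3 (right) against the mean log2 CPM of the acute-phase genes in each WT (blue circles) and THRB-KO (red squares) mouse, numbered by replicate. Acute-phase levels run from 8.36 to 9.72 in WT and from 7.13 to 8.25 in THRB-KO livers, and Slc13a3 is highest in mouse 2 of either genotype.

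Markers of other liver cell types overlapped between genotypes in their summed level. The 5 Kupffer cell markers were at 51.2 to 161 normalized CPM in WT and 56.1 to 116 in THRB-KO livers, and all 5 had fitted values below 0 (median −0.68) with 0 past the threshold with edgeR and 3 at an unadjusted p below 0.05 (against 13.6% of all genes tested). The 5 cholangiocyte markers were at 24.6 to 46.4 and 24.0 to 28.6, the 4 endothelial markers at 83.0 to 98.4 and 81.2 to 110, and the 5 stellate cell markers at 59.8 to 103 and 87.0 to 98.6. Of these, 1 stellate cell marker rose, Des, where 1.51% of all genes tested rose, and no marker was at 0 in all libraries. All 5 stellate cell markers had fitted values above 0 (median 0.29), 2 of them at an unadjusted p below 0.05 (edgeR). The 3 cholangiocyte markers tested were all below 0 (median −0.42), also with 2 at that level. Of the 4 endothelial markers, 2 were above and 2 below 0, with 1 at that level. The part of these cells in the levels of Slc13a5 and Slc13a3 was not tested.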

How the data were processed

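Livers of 5 WT and 5 THRB-KO mice were sequenced, 1 library per mouse, grouped by the sample titles. The authors mapped reads on mm10 with HISAT2 2.2.1 and counted them on exons of Ensembl release 102 with HTSeq-count 0.9.1 (union mode, minimum alignment quality 10, without strand, ambiguous and non-unique reads dropped), and the deposited values are raw counts per gene. Their own edgeR 3.36.0 comparison (fold changes and p-values) was not used. Nothing in the labels says how mice were assigned to runs.

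The test was that of edgeR 4.0.16 (R 4.3.3) on the counts, with the study's settings: a minimum of 1 CPM in 5 or more libraries, TMM factors, robust quasi-likelihood F-test over all genes, Benjamini-Hochberg adjustment at 0.15. Normalized CPM are counts scaled to 1000000 by TMM-corrected library size. The standard error is the absolute log2 fold change over the square root of F, and 95% intervals use the test's degrees of freedom. Log2 CPM have a prior count of 2. The script was tested on simulated data. Symbols, coordinates, overlaps and merged exon lengths come from GENCODE M21 on GRCm38, another release than the authors' annotation; 55141 of 55401 identifiers had a symbol. Promoter windows come from RefSeq on GRCm38.p6.

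A further gene, other than Nnt, is not reported here and was left out of the lists. Members and gene lists were chosen with earlier results of these data known. Named genes are the members, Thrb, Dio1, pathway genes past the threshold and the highest and lowest of each pathway list. The 5 genes nearest to Slc13a5 were also named. Des, Ttr, Hamp, Acacb, Mlycd and some pathway genes called only in an alternative were named after their values were seen. Alternatives were RLE and upper-quartile normalization, DESeq2 1.42.0, limma-voom (limma 3.58.1), no filter, filterByExpr, no robust settings, a replicate block, an acute-phase covariate, an adjusted p of 0.05 and leaving out each mouse; filters then asked for as many libraries as the smaller group had. Intervals are for the fitted difference between genotypes and rest on the variation between these mice.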

Additional observations from a re-analysis of the deposited data

Results flagged for a closer look

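Of 24 groups of 5 mice checked (the 9 members, Thrb, Dio1 and library totals), 3 held a mouse that stood apart from the remaining 4 of that genotype, where chance gives about 1.2. Slc13a5 was high in THRB-KO mouse 1, at 0.903 normalized CPM against 0.412 to 0.497 in the other 4, and without this mouse its log2 fold change was −4.21. Slc25a1 was low in THRB-KO mouse 2, at 221 normalized CPM against 239 to 245. The total count of that mouse was also the lowest of its genotype, 27779196 against 28441288 to 28590704.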

How the results depend on the processing

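Slc13a5 kept its direction in 19 of 19 alternatives, with log2 fold changes from −4.21 (without THRB-KO mouse 1) to −3.56 (acute-phase covariate). Slc13a3 kept its direction in 19 and its call in 18, and its adjusted p from edgeR, DESeq2 and limma lay between 4.53e-07 and 1, and its values without single mice ran from −1.33 to −1.08. The other 7 members were past the threshold in no alternative.

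At an adjusted p of 0.15, 499 genes were called. There were 165 at 0.05, 885 with DESeq2 and 7 with the acute-phase covariate, and 229 (without THRB-KO mouse 3) to 684 (without THRB-KO mouse 1) with a mouse left out; they were 256 without WT mouse 2 and 284 without WT mouse 5. The 3 pathway genes became 1 at 0.05, 8 with DESeq2, 0 with the acute-phase covariate and 1 to 6 with a mouse left out. The 1 member other than Slc13a5 became 0 with the acute-phase covariate. The cause was not tested. Mice with the same replicate number in both genotypes did not deviate together (correlations from −0.20 to 0.0091 over 5 numbers), so the numbers were not taken as pairs, and in 0 of 5 numbers were the mice each other's best match. The replicate block gave 348 genes and 5 pathway genes, Acacb, Me1, Pdp2, Srebf1 and Thrsp.

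Among the named genes, signs turned only in genes that were not called. With the acute-phase covariate Acly was at 0.33, Aco1 at −0.0031, Idh2 at −0.054, Slc25a10 at −0.079, Slc25a21 at 0.35, Pcx at 0.043 and Pgd at 0.14. With a mouse left out, Slc13a2 ran from −0.0047 to 0.54, Acly from −0.16 to 0.17, Ankh from −0.13 to 0.045, Slc25a21 from −0.098 to 0.079 and Pgd from −0.19 to 0.016. Over 30 named genes, 532 of 570 values kept direction and call. With 5 mice per genotype, changes within the intervals given for the enzymes remain compatible with these values, and Slc13a5 rests on 11 to 26 counts per THRB-KO library.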
